A study of Mus musculus with 4 samples.

Results

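To describe the secretory defence of the uterus at the end of pregnancy, a set of 10 genes for secreted antimicrobial and acute-phase proteins was followed through the transcriptomes of pregnant uteri. The set comprises Ltf, Lcn2, Slpi, Pigr, Saa1, Saa2, Saa3, Defb1, Lyz2 and Cd14. These genes were chosen by name, with the counts of the same libraries already known, so their levels and differences are given as a description and not as independent evidence. They are 10 of 55421 counted genes. Of the 10, 8 reached at least 1 CPM (counts scaled to the total of the library) in at least 2 libraries and are among the 14492 genes that entered the fit across all genes, while Saa1 and Saa2 did not.

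The uteri came from 2 wildtype mice (WT, strain C57BL/6J) and 2 mice lacking the MHC class Ib antigen Qa-2 (Qa-2-, strain B6.K1, B6.Cg-H2b3/FlaCmwJ), all pregnant at E18.5 after syngeneic mating, with 1 library from 1 mouse each. No treatment is stated for them. B6.K1 is a congenic strain that arose by recombination in the H2 region, so the groups may differ at H2 loci other than those encoding Qa-2. RNA was taken from a small piece of frozen whole uterus, which holds muscle, stroma, epithelium, serosal mesothelium and leukocytes, and in such bulk tissue fewer cells of a type and less RNA per cell cannot be told apart. Total counts lay between 33286390 and 41041299 per library, so that 3 counts, taken as the floor of detection, correspond to 0.0731 to 0.0901 CPM. This floor covers counting error only.

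Mucosal epithelia secrete a first line of defence that acts before any adaptive response. Iron-binding proteins starve bacteria or block their siderophores, lysozyme and defensins damage bacterial envelopes, protease inhibitors limit tissue damage, and the polymeric immunoglobulin receptor carries IgA across the epithelium. In the uterus, lactoferrin is a classical estrogen-responsive secretory product, and many genes of this kind are induced in epithelia by cytokines through NF-kappaB and C/EBP transcription factors. The name "epithelial" is not exclusive: Lyz2 and Cd14 are also well known from macrophages, and Ltf and Lcn2 from maturing neutrophils.

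The RefSeq promoter sequences (GRCm38.p6, 250 bases before the annotated start) of 8 members were at hand, namely those of all but Defb1 and Cd14. Shown here are those whose level differed at least 4-fold between the 2 Qa-2- uteri, together with Lyz2, whose level did not. Capitals mark a match to the C/EBP-type motif TTGCNNAA or its reverse complement TTNNGCAA. The windows are chr9:111019042-111019291 (plus strand) for Ltf, chr2:32387740-32387989 (minus strand) for Lcn2, chr2:164356508-164356757 (minus strand) for Slpi, chr7:46715677-46715926 (minus strand) for Saa3, chr1:130826434-130826683 (plus strand) for Pigr and chr10:117282273-117282522 (minus strand) for Lyz2. The windows of Lcn2 and Slpi lie inside the counted gene, those of Ltf, Saa3 and Lyz2 overlap its first bases, and that of Pigr lies outside it.
Ltf: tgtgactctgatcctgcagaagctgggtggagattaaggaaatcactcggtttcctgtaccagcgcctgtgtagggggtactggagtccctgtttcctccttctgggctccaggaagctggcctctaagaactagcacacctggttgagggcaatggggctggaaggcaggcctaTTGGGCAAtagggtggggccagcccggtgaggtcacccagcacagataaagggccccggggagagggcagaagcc
Lcn2: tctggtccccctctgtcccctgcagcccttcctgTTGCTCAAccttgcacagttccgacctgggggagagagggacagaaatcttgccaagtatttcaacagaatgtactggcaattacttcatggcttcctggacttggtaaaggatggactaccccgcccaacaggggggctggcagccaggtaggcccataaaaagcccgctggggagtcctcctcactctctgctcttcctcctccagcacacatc
Slpi: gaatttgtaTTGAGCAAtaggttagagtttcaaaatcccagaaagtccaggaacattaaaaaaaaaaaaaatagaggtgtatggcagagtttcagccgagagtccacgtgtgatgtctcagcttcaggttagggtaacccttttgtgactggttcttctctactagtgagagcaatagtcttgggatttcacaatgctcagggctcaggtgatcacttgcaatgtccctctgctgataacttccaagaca
Saa3: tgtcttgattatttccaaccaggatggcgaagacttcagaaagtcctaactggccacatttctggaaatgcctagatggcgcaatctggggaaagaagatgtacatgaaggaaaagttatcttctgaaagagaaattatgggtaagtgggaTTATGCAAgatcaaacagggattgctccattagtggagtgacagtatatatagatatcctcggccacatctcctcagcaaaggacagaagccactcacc
Pigr: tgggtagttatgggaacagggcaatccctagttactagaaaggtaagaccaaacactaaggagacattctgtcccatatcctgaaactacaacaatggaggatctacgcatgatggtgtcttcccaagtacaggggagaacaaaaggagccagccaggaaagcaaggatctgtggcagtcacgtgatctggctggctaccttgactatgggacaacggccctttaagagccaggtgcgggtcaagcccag
Lyz2: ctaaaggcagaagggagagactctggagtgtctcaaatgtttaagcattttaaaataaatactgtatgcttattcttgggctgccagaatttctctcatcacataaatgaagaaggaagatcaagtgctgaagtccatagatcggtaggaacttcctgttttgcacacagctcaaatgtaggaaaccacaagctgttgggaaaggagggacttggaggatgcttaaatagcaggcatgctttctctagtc

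A C/EBP-type match was found in 6 of the 8 member promoters, compared with 9.56% of 32851 RefSeq promoters of the same length. Relative to the start, the match TTGGGCAA lay at -75 to -68 in Ltf, TTATGCAA at -99 to -92 in Saa3, TTGCTCAA at -216 to -209 in Lcn2 and TTGAGCAA at -241 to -234 in Slpi. Saa1 and Saa2 shared the match TTGCACAA, at -182 to -175 and -183 to -176. Their windows are near copies of each other, so these matches are not independent. Pigr and Lyz2 held none. The NF-kappaB consensus (kappaB), STAT (TTCNNNGAA), AP-1 (TGANTCA), palindromic estrogen response element and TATA box (TATAAA) motifs, also searched on both strands, matched in 0 of the 8 windows, so that no match overlapped another motif. They matched in 7.25%, 7.02%, 6.75%, 0.0639% and 12.4% of all promoters. A match describes letters in the window and nothing more, and no match says only that these letters are not there.

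Between the groups, the quasi-likelihood test of edgeR, adjusted over all genes by Benjamini-Hochberg at 0.05, called 0 of the 8 members tested and 0 of all 14492 genes (0%), although 1 of the members (Lyz2) and 2199 of all genes had an unadjusted p under 0.05. With DESeq2, 700 genes passed (4.83%), among them 1 member, Lyz2. Pigr was higher in both Qa-2- uteri than in both WT uteri, an arrangement found in 24.5% of all genes, while Saa3 and Lyz2 were higher in both WT uteri, as were 25.4% of all genes. The other 5 members overlapped between the groups. The median log2 fold change (Qa-2- over WT) was 0.57 over the 8 members, with 5 positive and 3 negative values, compared with -0.012 over all genes. It was -0.17 when no filter was applied and Saa1 and Saa2 entered.

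The members also differed within the groups. In 6 of the 8, the level in Qa-2- replicate 2 was at least 4 times that in Qa-2- replicate 1, which was the case for 68 of all genes (0.469%). The median ratio of these 2 libraries was 5.15 over the members and 0.997 over all genes. Because the set was chosen with these counts known, its share is not read as a result about secretory genes. The counts on the 10 genes made up 0.271% and 0.17% of all counts in the WT uteri and 0.143% and 1.15% in the Qa-2- uteri. Qa-2- replicate 1 therefore had the lowest and Qa-2- replicate 2 the highest share.

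**Figure D1:**
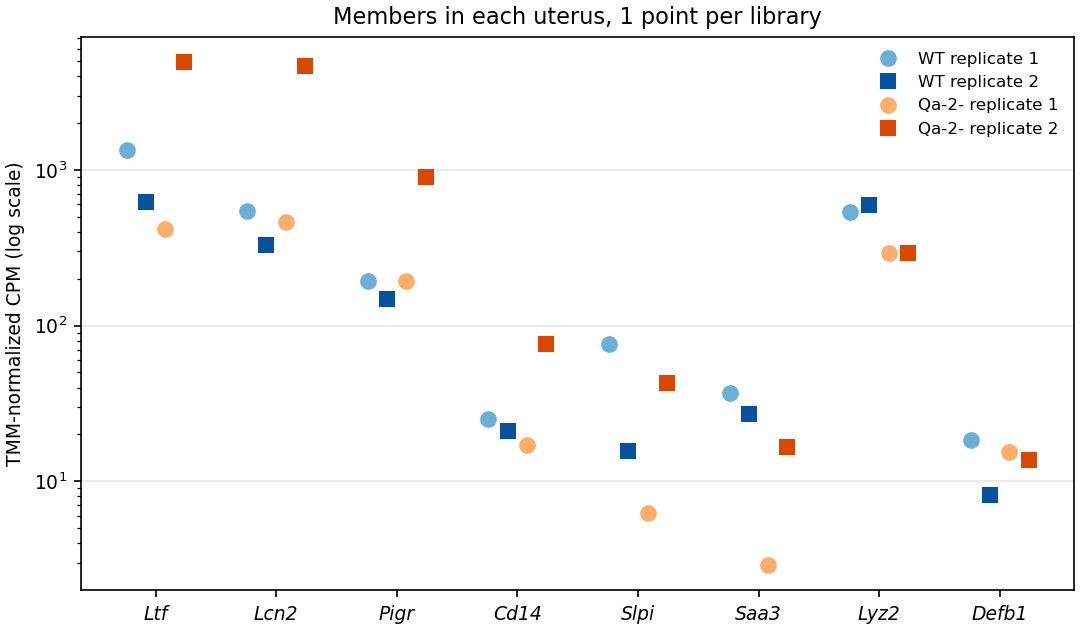
TMM-normalized CPM on a log scale for the 8 members that passed the filter, with 1 point per library. Qa-2- replicate 2 was the highest library for Ltf, Lcn2, Pigr and Cd14, whereas both Qa-2- uteri lay at about 292 CPM for Lyz2, below both WT uteri.

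Among the iron-binding proteins, Ltf (ENSMUSG00000032496, GRCm38 chr9:111019271-111042767, plus strand) encodes lactoferrin, which withholds iron from bacteria. Normalized for library size and composition by TMM, it was measured at 1348 and 626 CPM in the WT uteri and at 414 and 4933 CPM in the Qa-2- uteri. The 2 Qa-2- uteri were the lowest and the highest of the 4 libraries, 11.9-fold apart, and the WT uteri, themselves 2.15-fold apart, lay between them. The group means were 987 ± 511 CPM for WT and 2674 ± 3195 CPM for Qa-2- (SD, n = 2 each). On the log2 scale the fold change was 1.44 ± 1.12 (SE) with an adjusted p of 0.571 by edgeR, and it became -1.25 without Qa-2- replicate 2.

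Lcn2 (ENSMUSG00000026822, chr2:32384633-32388252, minus strand) encodes lipocalin 2, which captures bacterial siderophores. Its level was 542 and 331 CPM in the WT uteri and 462 and 4641 CPM in the Qa-2- uteri. The other 3 libraries thus stayed within a narrow range, while Qa-2- replicate 2 was 8.57 times the highest of the others. Only 23 of all genes (0.159%) exceeded the other 3 libraries at least 4-fold in Qa-2- replicate 2, and 2 members, Lcn2 and Pigr, were among them. The log2 fold change of Lcn2 was 2.55 ± 1.07 (SE, adjusted p = 0.348 by edgeR, 0.265 by DESeq2), but without Qa-2- replicate 2 it was 0.08.

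Together, Ltf and Lcn2 took 68.1% and 54.0% of the member counts in WT uteri and 62.3% and 87.8% in Qa-2- uteri. Slpi (ENSMUSG00000017002, chr2:164354070-164389095, minus strand) encodes the secretory leukocyte protease inhibitor, which blocks neutrophil elastase and cathepsin G and is itself bactericidal. It was found at 76.3 and 15.6 CPM in WT uteri and at 6.23 and 42.9 CPM in Qa-2- uteri. Both groups were spread widely, with a 4.90-fold difference in WT and a 6.90-fold difference in Qa-2-, and overlapped. The log2 fold change of -0.90 ± 1.07 (SE, adjusted p = 0.715 by edgeR) turned to 0.69 without WT replicate 1 and moved to -2.88 without Qa-2- replicate 2, to -0.10 without Qa-2- replicate 1 and to -1.63 without WT replicate 2.

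In IgA transport, Pigr (ENSMUSG00000026417, chr1:130826684-130852249, plus strand) encodes the polymeric immunoglobulin receptor, whose cleaved ectodomain is the secretory component. Its level was 193 and 147 CPM in WT uteri and 195 and 894 CPM in Qa-2- uteri. Although both Qa-2- values were above both WT values, Qa-2- replicate 1 exceeded WT replicate 1 by a margin of 194.7 against 192.7 CPM, and the order of these libraries turned when genes were not filtered before normalization. Qa-2- replicate 2 was 4.59 times Qa-2- replicate 1. For Pigr, a log2 fold change of 1.68 ± 0.71 (SE, adjusted p = 0.35 by edgeR, 0.0719 by DESeq2) was obtained, which was 0.20 without Qa-2- replicate 2.

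Of the antibacterial enzymes and peptides, Lyz2 (ENSMUSG00000069516, chr10:117277331-117282321, minus strand) encodes the lysozyme of macrophages, which cleaves peptidoglycan. It was measured at 534 and 594 CPM in WT uteri and at 293 and 292 CPM in Qa-2- uteri. The groups did not overlap, and the 2 Qa-2- libraries differed by less than 1 CPM (292 ± 0.692, against 564 ± 42.8 in WT; SD, n = 2 each). This gave a log2 fold change of -0.95 ± 0.21 (SE), with an adjusted p of 0.246 (unadjusted 0.00591) by edgeR and 0.000591 by DESeq2. It stayed between -0.995 and -0.86 when each library was left out in turn. The near-identical neighbour Lyz1 (transcripts 91.9% identical to Lyz2) was at 8.27 and 8.88 CPM in WT and at 2.76 and 2.20 CPM in Qa-2-, likewise without overlap. Read pairs that fit both genes equally were not counted, so how the reads divide between them is uncertain.

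Defb1 (ENSMUSG00000044748, chr8:21776599-21795185, plus strand) encodes a beta-defensin that epithelia make constitutively. It reached 18.4 and 8.11 CPM in WT uteri and 15.4 and 13.7 CPM in Qa-2- uteri. Here the Qa-2- libraries lay close together and between the WT libraries. Accordingly, the log2 fold change was 0.13 ± 0.41 (SE, adjusted p = 0.897 by edgeR), which turned to -0.34 without WT replicate 2 and was 0.87 without WT replicate 1, 0.04 without Qa-2- replicate 1 and 0.21 without Qa-2- replicate 2.

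Serum amyloid A proteins are acute-phase apolipoproteins, of which Saa1 and Saa2 are mainly hepatic in mice and Saa3 is made in extrahepatic tissue. Saa3 (ENSMUSG00000040026, chr7:46711998-46715700, minus strand) was measured at 36.7 and 27.1 CPM in WT uteri and at 2.90 and 16.6 CPM in Qa-2- uteri. The groups did not overlap, and Qa-2- replicate 1 was the lowest library by far, 5.71-fold below Qa-2- replicate 2. The log2 fold change was -1.71 ± 0.77 (SE, adjusted p = 0.368 by edgeR, 0.121 by DESeq2), and it was -3.46 without Qa-2- replicate 2 and -0.94 without Qa-2- replicate 1.

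Saa1 (ENSMUSG00000074115, chr7:46740497-46742980, minus strand) had 11 and 6 counts in WT uteri and 3 and 0 counts in Qa-2- uteri. Saa2 (ENSMUSG00000057465, chr7:46751790-46754313, plus strand) had 0 and 6 counts in WT and 3 and 1 counts in Qa-2-. Saa1 thus had more counts in both WT uteri, while Saa2 overlapped, all near the floor of 3 counts. In the fit without a filter, which included both genes, 0 members passed by edgeR. The transcripts of Saa1 and Saa2 are 93.9% identical, and reads shared by them were not counted, so their own levels are uncertain, whereas Saa3 is 61.0% and 60.2% identical to them.

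Cd14 (ENSMUSG00000051439, chr18:36725067-36726798, minus strand) encodes the co-receptor that hands lipopolysaccharide to Toll-like receptor 4, and occurs in a membrane-bound and a soluble form. Its level was 25.1 and 21.2 CPM in WT uteri and 17.2 and 76.2 CPM in Qa-2- uteri. As for Ltf, the Qa-2- libraries were the lowest and the highest, here 4.43-fold apart. The log2 fold change of 1.01 ± 0.67 (SE, adjusted p = 0.502 by edgeR) became -0.43 without Qa-2- replicate 2.

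**Figure D2:**
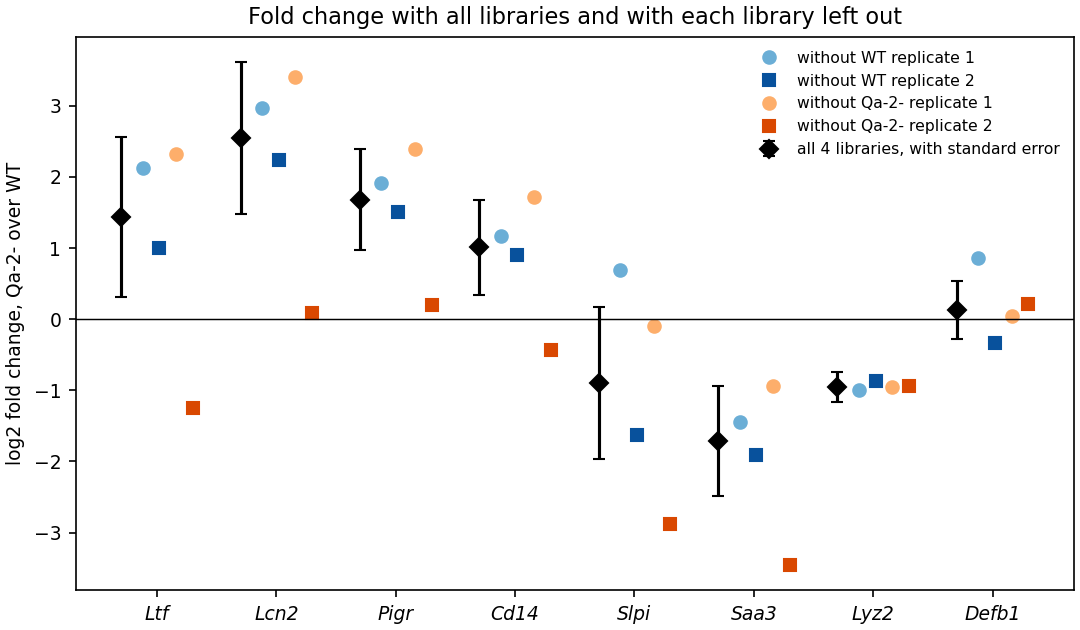
Log2 fold change (Qa-2- over WT) of each member with all 4 libraries (diamonds, bars are the standard error) and with each library left out (coloured points). Without Qa-2- replicate 2, Ltf and Cd14 fell below 0 and Lcn2 and Pigr came to 0.08 and 0.20, while Lyz2 stayed between -0.995 and -0.86.

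Levels of different genes were compared per transcript length, as TPM, in which counts are divided by exon length before scaling. In WT uteri, the mean TPM was 1219 for Lyz2, 801 for Ltf, 468 for Lcn2, 119 for Pigr, 108 for Slpi, 42.6 for Defb1, 37.8 for Cd14 and 34.5 for Saa3. The ranges of neighbours in this order over the 2 WT libraries overlapped, except for those of Lyz2 and Ltf and of Lcn2 and Pigr. Within each WT library, Ltf was also above Lcn2, Slpi above Defb1, and Cd14 above Saa3. In Qa-2- uteri, the mean TPM was 2987 for Lcn2, 2378 for Ltf, 694 for Lyz2, 417 for Pigr, 83.1 for Cd14, 64.1 for Slpi, 52.1 for Defb1 and 11.5 for Saa3.

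The order also differed between the 2 Qa-2- uteri. In Qa-2- replicate 1, Lyz2 led with 710 TPM, followed by Lcn2 with 562 and Ltf with 383 TPM. In Qa-2- replicate 2, Lcn2 led with 5412 TPM, followed by Ltf with 4374, and Pigr and Lyz2 were level at 680 and 679 TPM. Lyz2 took 20.8% of the member counts in the former and 2.68% in the latter.

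**Figure D3:**
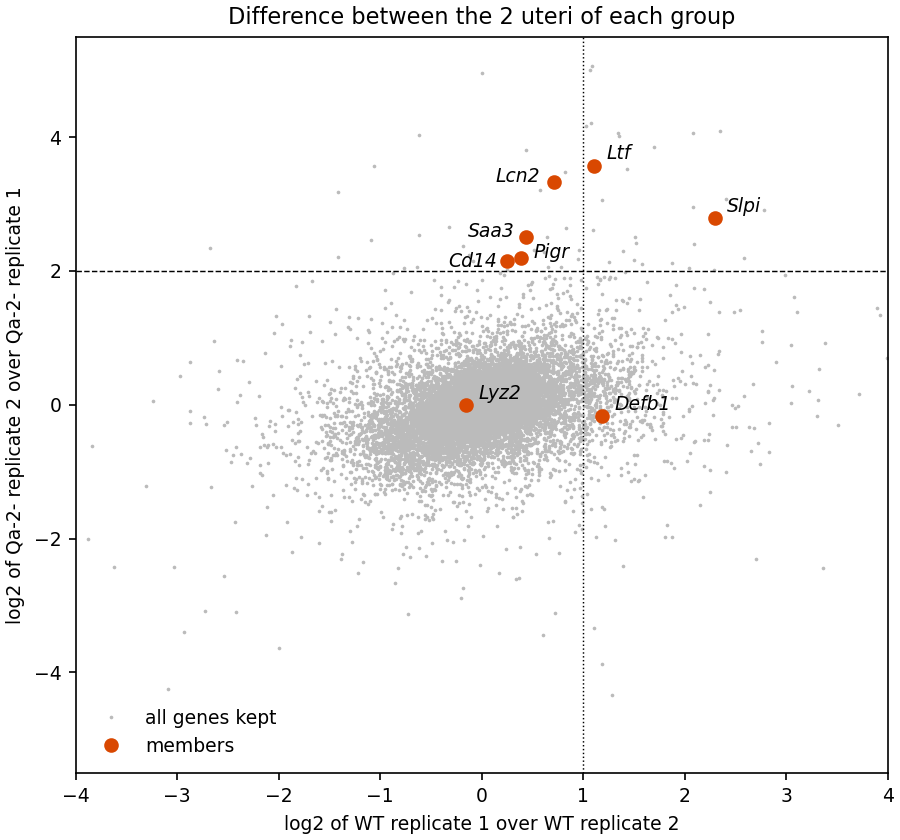
Each point is 1 gene, with the log2 ratio of the WT uteri (replicate 1 over replicate 2) on the horizontal axis and that of the Qa-2- uteri (replicate 2 over replicate 1) on the vertical axis, for 14460 genes (32 beyond the axes or at 0 counts in a library are not drawn). The 6 members above the dashed line differed at least 4-fold between the Qa-2- uteri, and Ltf, Slpi and Defb1 lie right of the dotted line, at 2-fold between the WT uteri.

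The WT uteri also differed in some members. In 3 of the 8, Ltf, Slpi and Defb1, WT replicate 1 was at least 2 times WT replicate 2, compared with 685 of all genes (4.73%). Of these 8, only Lyz2 had the lower value in WT replicate 1, at 0.898 times WT replicate 2.

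Next, the members were set against markers of the cell types that a piece of uterus can hold. The 15 epithelial markers, among them Krt8, Epcam and Cdh1, summed to 3413 and 2042 CPM in WT uteri and to 4528 and 4684 CPM in Qa-2- uteri, with none at 0. All 15 had a positive log2 fold change (0.37 to 1.45, median 0.82), 11 were higher in both Qa-2- uteri, 0 passed by edgeR (6 at an unadjusted p under 0.05) and 2, Krt19 and Elf3, passed by DESeq2. The sum was thus higher in the Qa-2- uteri but differed by 1.03-fold between them. Counts of Ltf per 100 epithelial marker counts were 39.5 and 30.7 in WT and 9.15 and 105 in Qa-2-, a ratio of 11.5 between the Qa-2- uteri, close to the 11.9 without this division. For Lcn2 they were 15.9 and 16.2 in WT and 10.2 and 99.1 in Qa-2-, and for Pigr 5.65 and 7.21 in WT and 4.30 and 19.1 in Qa-2-. For each of these genes, Qa-2- replicate 1 was the lowest library relative to epithelium and Qa-2- replicate 2 the highest. Pigr, which was above both WT values in both Qa-2- uteri, was below them in Qa-2- replicate 1 on this scale.

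Defb1 did not show the difference between the Qa-2- uteri seen for Ltf, Lcn2 and Pigr. Per 100 epithelial marker counts it reached 0.540 and 0.397 in WT and 0.339 and 0.292 in Qa-2-, so that both Qa-2- values lay below both WT values. On the same scale Saa3 was at 1.075 and 1.33 in WT and 0.0641 and 0.354 in Qa-2-, and Slpi at 2.235 and 0.762 in WT and 0.138 and 0.917 in Qa-2-, so that Saa3 was likewise lower in both Qa-2- uteri and Slpi overlapped. The individual epithelial markers ranged from 0.731 to 2.22 in the ratio of Qa-2- replicate 2 to replicate 1, and the ratio of Defb1 was 0.892.

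Maturing neutrophils carry Ltf and Lcn2 in their granules. The 11 neutrophil markers summed to 10.4 and 10.1 CPM in WT uteri and to 6.00 and 7.004 CPM in Qa-2- uteri, and only 2 of them, S100a9 and Csf3r, passed the filter. The granule gene Ngp was at 0 in every library, and 2 to 4 of the 11 were at 0 in each. In the Qa-2- uteri, S100a9 was at 0.507 and 2.29 CPM and S100a8 at 0.169 and 0.886 CPM, higher in replicate 2, whereas Csf3r was at 3.63 and 3.12 CPM and Cxcr2 at 1.18 and 0.257 CPM, lower in replicate 2, where Ltf and Lcn2 were higher. The part of neutrophils in the differences of Ltf and Lcn2 was not tested.

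Slpi and Saa3 are also known from mesothelium, the covering of the serosa. The 8 mesothelial markers summed to 163 and 156 CPM in WT uteri and to 110 and 61.9 CPM in Qa-2- uteri. Each of the 7 that passed the filter had a negative log2 fold change (median -3.25), 6 were lower in both Qa-2- uteri, 0 passed by edgeR (6 unadjusted) and 5, such as Nkain4 and Lrrn4, passed by DESeq2. Nkain4 was at 4.24 and 2.62 CPM in WT and at 0.113 and 0.200 CPM in Qa-2-. The mesothelial sum, which includes Wt1 from the stroma at 46.6 to 82.9 CPM, was highest in the libraries where Saa3 was highest, but it was lower in Qa-2- replicate 2 than in replicate 1, where Saa3 and Slpi were not. Per 100 mesothelial marker counts, Saa3 was at 22.6 and 17.4 in WT and 2.64 and 26.8 in Qa-2-, so that the groups, apart in CPM, overlapped and Qa-2- replicate 2 was highest. Slpi was at 46.9 and 9.99 in WT and 5.66 and 69.3 in Qa-2- on this scale. In the Qa-2- uteri most of the sum was Wt1, at 82.9 of 110 and 46.6 of 61.9 CPM. These values therefore do not give Saa3 or Slpi relative to mesothelium alone. The part of mesothelial content in the lower Saa3 of the Qa-2- uteri was not tested.

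The 11 macrophage markers summed to 928 and 1392 CPM in WT uteri and to 841 and 600 CPM in Qa-2- uteri, with none at 0. All 11 had a negative log2 fold change (median -0.75), 8 were lower in both Qa-2- uteri, 0 passed by edgeR (7 unadjusted) and 3 (Cd68, C1qa and C1qb) by DESeq2. Lyz2 moved with them between the groups. Its counts per 100 macrophage marker counts were 57.5 and 42.7 in WT and 34.9 and 48.7 in Qa-2-, so that the groups, apart in CPM, overlapped on this scale. The part of macrophage content in the Lyz2 difference was not tested. Cd14 reached 2.702 and 1.52 per 100 macrophage marker counts in WT and 2.05 and 12.7 in Qa-2-, and Qa-2- replicate 2 therefore stood apart on this scale as well. The 5 monocyte markers summed to 394 and 424 CPM in WT and to 282 and 250 CPM in Qa-2-, and 0 of the 5 passed by edgeR (0 unadjusted) or DESeq2.

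**Figure D4:**
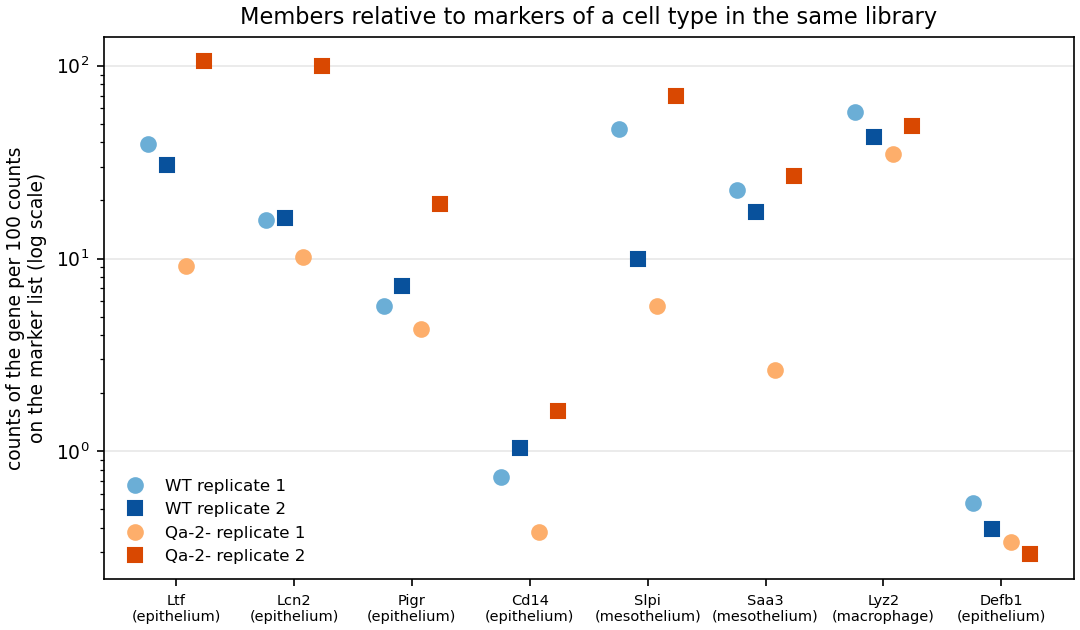
Counts of each member per 100 counts on the marker list named under it, on a log scale, with 1 point per library. Relative to epithelial markers, the Qa-2- uteri are the lowest and the highest library for Ltf, Lcn2, Pigr and Cd14, and for Lyz2 relative to macrophage markers the groups overlap.

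Other tissue also differed between the libraries. The smooth muscle and stroma markers summed to 20601 and 35432 CPM in WT uteri and to 19301 and 10361 CPM in Qa-2- uteri, lowest in the library with the highest Ltf and Lcn2. Yolk sac and hepatic-type markers such as Afp summed to 586 CPM in Qa-2- replicate 1 and to 7.97 to 58.5 CPM in the others, and the 8 trophoblast markers summed to 0.229 to 25.3 CPM, with 2 at 0 in every library. Their part in the differences of the members was not tested.

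To see how far the pattern extended, lists of genes with related roles were examined. Of 36 other secreted antimicrobial genes, 15 passed the filter, of which 0 passed by edgeR (6 at an unadjusted p under 0.05), while by DESeq2 1 was higher in Qa-2- and 3 were higher in WT. Their median log2 fold change was 0.28, and 3 of the 15, Lpo, Chil1 and S100a9, were at least 4 times higher in Qa-2- replicate 2 than in replicate 1. The most abundant by mean TPM were Wfdc2, a whey acidic protein relative of Slpi, at 660 and 372 CPM in WT and 492 and 758 CPM in Qa-2-, and the ribonuclease Rnase4, at 753 and 766 CPM in WT and 530 and 426 CPM in Qa-2-. Wfdc2 overlapped between the groups, and Rnase4 was lower in both Qa-2- uteri.

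The largest fold changes on this list were those of Muc16, a membrane mucin that mesothelium also carries, and of the long pentraxin Ptx3. Muc16 was at 2.94 and 1.99 CPM in WT and 0.338 and 0.172 CPM in Qa-2- (log2 fold change -3.26, adjusted p = 0.246 by edgeR, 0.000358 by DESeq2). Ptx3 was at 14.6 and 8.27 CPM in WT and 1.41 and 1.11 CPM in Qa-2- (log2 fold change -3.17, adjusted p = 0.244 by edgeR, 9.04e-10 by DESeq2). For both, the groups did not overlap and, unlike for Slpi, the 2 Qa-2- uteri differed less than 4-fold. Lactoperoxidase (Lpo), which makes an oxidant in secretions, was at 3.19 and 1.25 CPM in WT and at 2.11 and 34.1 CPM in Qa-2-.

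Of 25 other acute-phase genes, 15 passed the filter, with a median log2 fold change of 0.11, and 2 of them, Cfb and Lrg1, were at least 4 times higher in Qa-2- replicate 2 than in replicate 1. By edgeR 0 passed (3 unadjusted), and by DESeq2 3 were higher in Qa-2- and 1 in WT. By mean TPM, complement C3 was by far the most abundant, at 10515 and 5007 CPM in WT and at 16716 and 30494 CPM in Qa-2- (log2 fold change 1.60, adjusted p = 0.383 by edgeR, 0.0102 by DESeq2), followed by the metallothionein Mt2, at 231 and 124 CPM in WT and 111 and 120 CPM in Qa-2-. C3 was higher in both Qa-2- uteri and, like Ltf, highest in replicate 2, although the ratio between the Qa-2- uteri was 1.82. Fga, a fibrinogen chain, was at 0.847 and 0.583 CPM in WT and 9.24 and 1.97 CPM in Qa-2-, highest in the library with most yolk sac and hepatic-type markers. Lbp, which delivers lipopolysaccharide to CD14, was at 1366 and 92.2 CPM in WT and 64.5 and 176 CPM in Qa-2-, with WT replicate 1 standing far above the other libraries.

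The sensing machinery around CD14 was more even between the Qa-2- uteri than Cd14 itself. All 21 genes of this list passed the filter, with a median log2 fold change of 0.01, 0 passed by edgeR (3 unadjusted) or DESeq2, and 0 differed at least 4-fold between the Qa-2- uteri. The signalling kinase Irak1 was at 111 and 105 CPM in WT and at 118 and 127 CPM in Qa-2-. The flagellin receptor Tlr5 was at 8.12 and 5.99 CPM in WT and 13.9 and 12.1 CPM in Qa-2-, without overlap (log2 fold change 0.88, adjusted p = 0.275 by edgeR).

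Among 26 cytokines, receptors and transcription factors that induce such genes, 22 passed the filter. Their median log2 fold change was 0.04, 0 passed by edgeR (5 unadjusted), 2 were higher in Qa-2- by DESeq2, and 0 differed at least 4-fold between the Qa-2- uteri. Il1a, an epithelial alarmin, was at 30.8 and 12.1 CPM in WT and at 44.4 and 98.1 CPM in Qa-2- (log2 fold change 1.73, adjusted p = 0.296 by edgeR, 0.026 by DESeq2). Il1b was at 2.22 and 1.46 CPM in WT and at 0.564 and 0.600 CPM in Qa-2-. The 2 interleukins thus lay on opposite sides. The most abundant by mean TPM were Nfkbia, the inhibitor of NF-kappaB, which overlapped between the groups at 111 to 148 CPM, and the TNF receptor Tnfrsf1a, at 177 and 200 CPM in WT and 151 and 139 CPM in Qa-2-.

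For iron handling, 12 of 12 genes passed the filter (median log2 fold change 0.35), and 0 passed by edgeR (4 unadjusted) or DESeq2. The ferritin chains Fth1 and Ftl1 were the most abundant by mean TPM and overlapped between the groups, at 1110 to 1639 CPM and at 766 to 1488 CPM. The transferrin receptor Tfrc was at 37.5 and 25.6 CPM in WT and 66.9 and 45.4 CPM in Qa-2-. The endocytic receptor Lrp2, which can take up lipocalin 2, was at 1.10 and 0.848 CPM in WT and 4.28 and 0.715 CPM in Qa-2-, highest, like Fga, in the library with most yolk sac and hepatic-type markers.

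The most abundant listed genes for the cargo of Pigr, Igha and Igkc, were more even than Pigr itself. Of 10 polymeric immunoglobulin genes, 8 passed the filter (median log2 fold change 0.05) and 0 passed by edgeR (0 unadjusted) or DESeq2. The IgA heavy chain Igha was at 845 and 1513 CPM in WT and at 1171 and 1366 CPM in Qa-2-, and the light chain Igkc at 399 and 593 CPM in WT and 491 and 666 CPM in Qa-2-. Both overlapped between the groups. The exception was Ccl28, an epithelial chemokine that attracts IgA plasma cells, at 23.6 and 9.28 CPM in WT and at 18.1 and 304 CPM in Qa-2-. Qa-2- replicate 2 was 12.9 times the highest of the other libraries, and the log2 fold change of Ccl28 was 3.29 (adjusted p = 0.335 by edgeR). Pou2af1, a B-cell coactivator, was at 0.797 and 1.64 CPM in WT and at 1.80 and 2.54 CPM in Qa-2-. Outside this list, the immunoglobulin variable genes Igkv4-59 and Ighv2-9-1 were 9.08 and 4.31 times the highest other library in Qa-2- replicate 2.

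The partners of SLPI were examined last. Of 7 genes for serine proteases of neutrophils and mast cells, among them its target cathepsin G, and for progranulin, which it protects from cleavage, 5 passed the filter (median log2 fold change 0.02) and 0 passed by edgeR (0 unadjusted) or DESeq2. Progranulin (Grn) was at 738 and 846 CPM in WT and at 638 and 478 CPM in Qa-2-, lower in both Qa-2- uteri. The mast cell chymase Cma1 was at 12.4 and 19.1 CPM in WT and at 21.6 and 19.7 CPM in Qa-2-, slightly higher in both Qa-2- uteri. Cathepsin G (Ctsg) was at 7.57 and 0.477 CPM in WT and 0.902 and 1.46 CPM in Qa-2-, highest in the library with most Slpi.

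**Figure D5:**
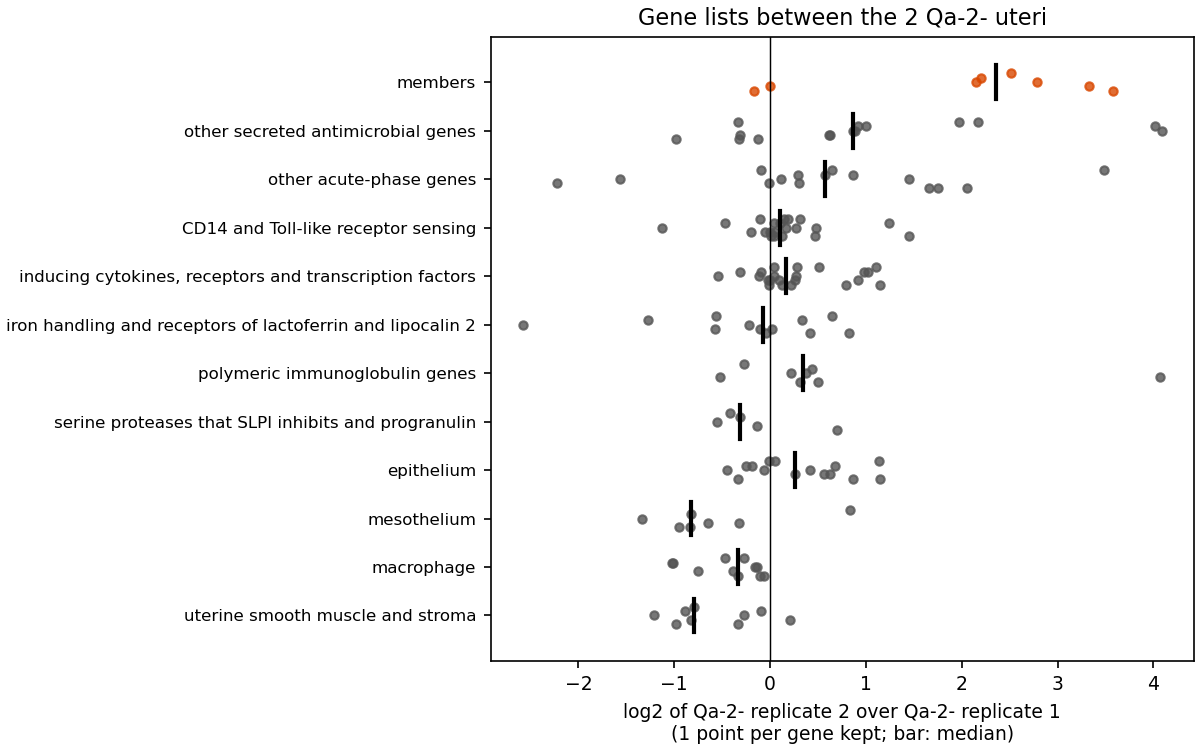
Log2 ratio of Qa-2- replicate 2 to Qa-2- replicate 1 for every gene that passed the filter in each list, with 1 point per gene and a bar at the median. The members were chosen with these values known. Their median lies at a ratio of 5.15, and the sensing, cytokine and iron lists hold 0 genes at or above a ratio of 4.

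Lastly, the genes whose pattern over the 4 libraries was most like that of a member were identified among 10063 genes with a mean of at least 10 CPM, by the distance between centred log2 CPM values. Nearest to Lcn2 were complement factor B (Cfb, distance 0.21), at 6.33, 3.58, 4.45 and 49.8 CPM in WT replicates 1 and 2 and Qa-2- replicates 1 and 2, Sectm1b (0.24), at 4.73, 3.18, 5.07 and 47.2 CPM, and Lpo (0.40). Each was highest in Qa-2- replicate 2, as was Lcn2, and lay below 10 CPM in the other libraries. They reached the mean of 10 CPM only through Qa-2- replicate 2, so this likeness was partly fixed in advance. Nearest to Ltf were Cfb (0.99), the peptidoglycan recognition protein Pglyrp1 (0.99), at 23.9, 12.3, 15.5 and 77.0 CPM, and the carboxylesterase Ces1d (1.10), at 10.1, 4.21, 5.52 and 24.2 CPM. Nearest to Saa3 were the kininogen Kng2 (1.24), at 22.9, 28.3, 3.04 and 5.80 CPM, Ly6f (1.37), at 78.2, 34.8, 15.9 and 36.4 CPM, and the acute-phase serpin Serpina3n (1.44), at 41.1, 28.5, 10.6 and 15.7 CPM. Ces1d, like Cfb, reached the mean of 10 CPM only through Qa-2- replicate 2. With 4 libraries, likeness of pattern is a description of these uteri only.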

How the data were processed

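RNA sequencing was analysed in 4 uterine libraries, 2 WT and 2 Qa-2-, grouped by the strain given for each. The deposited values are raw counts of read pairs per gene, made by the authors. Their processing notes name STAR 2.7.3a, featureCounts 2.0.0 and GRCm38.p6, and the file headers give counting on the reverse strand with a minimum mapping quality of 3, without multi-mapping pairs. The roles of the tools beyond this are not given in the sources used here. Gene symbols were found for 55154 of 55421 identifiers in a table of gene names for the organism, and 267 had none.

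A gene was kept if it reached 1 CPM in 2 or more libraries (14492 genes). This filter is worded as in the study's methods, which name no test for the transcriptome and give a larger number of genes left. The reason for the difference is not known here. After TMM normalization the groups were compared in R 4.3.3 by the quasi-likelihood test of edgeR 4.0.16 (legacy default), with Benjamini-Hochberg adjustment over all genes kept and a threshold of 0.05. DESeq2 1.42.0, library totals alone, upper-quartile scaling, other filters, a replicate block and each library left out were alternatives. The SE of a log2 fold change was back-computed as its absolute value over the square root of the edgeR F statistic. The scripts were tested on simulated data. P-values set the difference between the groups against the spread between 2 mice per group, whose estimate for each gene borrows from all genes. The libraries of each group were compared and differed by more than sampling noise (chi-square per gene 241 for WT and 151 for Qa-2-).

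The members and lists were chosen with earlier results of these data known. Named are all members, and for Ltf, Saa3 and Lcn2 the 3 genes of most similar pattern. From each list of genes with related roles, the 2 with the highest mean TPM and the 2 with the largest absolute log2 fold change are named. The cell type marker lists are given by their sums, and single markers were not named by this rule. Lyz1, Chil1, Ngp and the other genes named outside this rule were chosen after their values were seen. Transcript identity was computed from 1 GENCODE M21 transcript of each gene. TPM was computed from the counts and exon lengths in the deposited tables.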

Additional observations from a re-analysis of the deposited data

How the results depend on the processing

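With DESeq2, 296 genes were higher in Qa-2- and 404 in WT, against 0 and 0 by edgeR, and 1 member passed, Lyz2 (log2 fold change -0.94, adjusted p = 0.000591). Without a filter on low counts, 14 and 47 genes passed and 0 members, and the members' median log2 fold change was -0.17 with Saa1 and Saa2 included. Leaving out each library in turn gave 0 to 5 genes higher in Qa-2- and 0 to 88 higher in WT, the most without WT replicate 2, and 0 members in every case. The median log2 fold change of the members, 0.57, ranged from -0.69 (without Qa-2- replicate 2) to 1.02 (without WT replicate 1). The ranges were -1.25 to 2.32 for Ltf, -2.88 to 0.69 for Slpi, -0.34 to 0.87 for Defb1 and -0.43 to 1.72 for Cd14, and these 4 members turned direction. With 1 library left in a group, its spread was taken from the other group. For these changes the cause was not tested.

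A fit with a replicate block gave 0 genes higher in Qa-2- and 2 in WT, with 0 members. It moved the log2 fold change from 1.44 to 0.64 for Ltf, from 2.55 to 1.79 for Lcn2, from 1.01 to 0.66 for Cd14 and from 0.13 to 0.24 for Defb1, by less than 1.5 times for the other members, and turned the direction of none of the 8. Same-numbered libraries did not deviate together (correlation -0.39). With 2 libraries per group, this value cannot show whether the numbers pair the mice. A crossed pairing, added after seeing the data, gave 0 calls.

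Scaling on library totals alone moved the median log2 fold change of all genes from -0.012 to 0.083, and 4639 genes were then higher in both Qa-2- uteri and 2710 in both WT uteri, against 3555 and 3684. None of the 8 members changed direction by DESeq2, library totals, upper-quartile scaling or either other filter. At 0 to 11 counts per library, the depth limits what can be said of Saa1 and Saa2.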

Other observations

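Genes that exceeded all other libraries in Qa-2- replicate 2 were not limited to antimicrobial products. Of the 23 genes at least 4 times above the highest other library there, the largest ratio was that of Il1f6, an epithelial interleukin of the IL-1 family, at 1.79 and 0.424 CPM in WT and 1.58 and 26.4 CPM in Qa-2- (14.7 times the highest other library). The anion exchanger Slc26a4 was at 16.3 and 10.4 CPM in WT and 22.6 and 129 CPM in Qa-2-, and the diamine oxidase Aoc1 at 21.1 and 9.25 CPM in WT and 34.6 and 290 CPM in Qa-2-. These genes were chosen after their values were seen, and 1 library carries each of the differences.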
